A study of Mus musculus with 8 samples.

Results

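The miR-23, miR-27 and miR-24 microRNAs come from 2 related hairpin clusters, miR-23a, miR-27a and miR-24-2 (the a cluster) and miR-23b, miR-27b and miR-24-1 (the b cluster). They were taken from the small RNA table by name, as every microRNA feature called mmu-miR-23a, mmu-miR-23b, mmu-miR-24, mmu-miR-27a or mmu-miR-27b, all arms and copies included. This rule used no measured value, but it was set with earlier results of these data known. This gave 11 of the 2403 listed features, of which 813 are microRNAs: 5 from the a cluster, 5 from the b cluster, and miR-24-3p, which both clusters make. The libraries came from immortalized fibroblasts of mouse skin, and the table gives the authors' normalized read counts. There were 4 groups of 2 libraries, numbered 1 and 2. KO hypoxia cells derived from mir210lox/lox mice and were kept at 1% O2 for 24 h, and KO normoxia cells derived from the same genotype and were kept at 21% O2 for 24 h. WT hypoxia and WT normoxia cells derived from C57BL/6 mice and had the same 2 oxygen levels for the same time. The labels name no Cre and no separate cultures or cell lines within a genotype. P-values therefore cover no more than the spread among these libraries, and that spread may be technical, and the genotype cannot be told apart from the cell lines that carry it.

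A microRNA is cut from a hairpin whose arms are named 5p and 3p, and usually 1 arm is kept and loaded into an Argonaute protein. It then pairs with messenger RNAs mainly through its seed, bases 2 to 8, and lowers their translation or stability. The a and b clusters are paralogs, each made as a shared primary transcript. In mouse and human cells miR-27 is known to repress the adipocyte regulator PPARG, and miR-23 and miR-27 are known for their part in the growth of blood vessels. Early surveys of hypoxic human tumour cell lines listed miR-23, miR-24 and miR-27 among the microRNAs that respond to low oxygen.

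The mature sequences are shown first, since the comparison of the clusters turns on how alike the partners are. They are the RefSeq mature microRNAs of the GRCm38.p6 annotation, 5′ to 3′, with the seed in capitals. The 3p arms that this annotation lists are
miR-23a-3p: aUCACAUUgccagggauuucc
miR-27a-3p: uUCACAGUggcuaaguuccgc
miR-27b-3p: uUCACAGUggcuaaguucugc
miR-24-3p: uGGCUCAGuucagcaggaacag
RefSeq's table matched 10 of the 11 features. miR-27a-3p and miR-27b-3p share their seed and their first 18 bases, and among the 1679 mature mouse microRNAs of that table no other carries this seed. The miR-24-3p seed is found in 5 of the 1679. The arms opposite to them differ more, and the 5p arms of miR-24 are the only ones that tell the miR-24 copies apart:
miR-24-2-5p: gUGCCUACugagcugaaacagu
miR-24-1-5p: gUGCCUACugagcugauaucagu
miR-27a-5p: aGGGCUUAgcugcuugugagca
miR-27b-5p: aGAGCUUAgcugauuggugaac
The 5p arms of miR-24 share their seed and their first 16 bases. Those of miR-27 have different seeds, so the products of the miR-27 hairpins have a common seed on the 3p arm alone.

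The deposited sequences run 1 base past the mature microRNA on each side. The partners are shown as deposited, with the bases that differ in capitals and positions counted from 1 at the deposited 5′ end, because so few bases decide which cluster a read is counted for.
miR-23a-3p: aatcacattgccagggattTcca
miR-23b-3p: aatcacattgccagggattAcca
miR-27a-3p: gttcacagtggctaagttcCgcC
miR-27b-3p: gttcacagtggctaagttcTgcA
The miR-23 partners differ by T20A, near the 3′ end, and share the seed. The miR-27 partners differ by C20T and C23A, and the second of these lies outside the mature microRNA. The sources used here do not say how reads matching several features were treated.

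In GRCm38.p6 the a cluster lies on the plus strand of chromosome 8, with Mir23a at 84208518 to 84208592, Mir27a at 84208672 to 84208758 and Mir24-2 at 84208815 to 84208921. It spans 404 bases. The b cluster lies on the plus strand of chromosome 13, with Mir23b at 63300484 to 63300557, Mir27b at 63300712 to 63300784 and Mir24-1 at 63301208 to 63301275. It spans 792 bases, all of it inside the protein coding gene 2010111I01Rik on the same strand. Mir27b and Mir24-1 also overlap annotated exons of that gene, and the whole b cluster lies under Fancc on the opposite strand. Mir24-2 overlaps the long noncoding RNA Gm26532 by its last bases. Each miR-24 hairpin has an annotated microRNA on the opposite strand, Mir3074-2 on chromosome 8 and Mir3074-1 on chromosome 13, whose listed arms held little: miR-3074-1-3p 7 to 18 and miR-3074-5p 2 to 16 normalized reads. The hairpins of miR-24 are shown with both mature arms in capitals to make plain why the 3p arm has no cluster of its own.
Mir24-2: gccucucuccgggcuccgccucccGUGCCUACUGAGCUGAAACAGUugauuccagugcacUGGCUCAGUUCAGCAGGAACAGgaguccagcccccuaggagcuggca
Mir24-1: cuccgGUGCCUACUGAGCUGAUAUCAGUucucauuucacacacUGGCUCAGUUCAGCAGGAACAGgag
The 3p arm is the same 22 bases in both hairpins, so the table's single miR-24-3p value cannot be divided between the clusters.

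**Figure D1:**
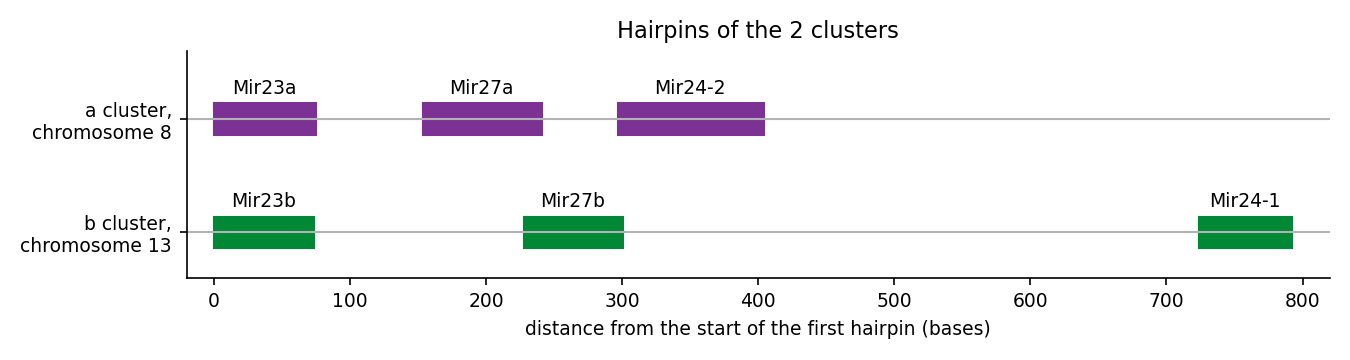
Each box is a hairpin, drawn to scale along the distance in bases from the start of the first hairpin of its cluster, with the a cluster on chromosome 8 above the b cluster on chromosome 13. The order is miR-23, miR-27, miR-24 in both, and the a cluster spans 404 bases against 792 bases for the b cluster.

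Normalized counts summed to 8618630 to 12167438 per library, and microRNAs took 73.0% to 82.0% of each total. A count of 0 in these libraries allows a share of up to 2.5e-05% to 3.5e-05% (3 counts over the total, counting error only), and no member was at 0 in any library. miR-210-3p, the microRNA of the genotype, held 10 to 32 in the KO libraries, 4786 and 8676 in WT normoxia, and 36738 and 39011 in WT hypoxia. A list of mesenchymal markers, which includes miR-21 and miR-22, made up 51.2% to 61.7% of the microRNA counts. Whether that list is particular to such cells was not tested. The lists for epithelial, blood, endothelial, muscle and neural cells made up at most 0.0810% each in any library. No listed marker was at 0 throughout. The libraries numbered 1 were the smaller in every group, with totals of 8618630 to 9928948 against 10324869 to 12167438 for those numbered 2.

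The 3p arms of miR-24, of both miR-23 forms and of miR-27a were among the most abundant microRNAs of these fibroblasts, with miR-24-3p at place 5, miR-23b-3p at 8, miR-23a-3p at 9 and miR-27a-3p at 18 of 813 by their mean. The members together made up 7.25% and 9.46% of the microRNA counts in KO hypoxia, 7.71% and 6.53% in KO normoxia, 6.69% and 9.39% in WT hypoxia, and 6.95% and 8.92% in WT normoxia. No group stood apart in this share, and libraries numbered 2 were the higher in 3 of the 4 groups. In bulk samples such as these, fewer cells that make a microRNA and less of it per cell cannot be told apart. All levels are normalized read counts, and the mature sequences have nearly the same length, so no length correction was applied. Whether the preparation captured the sequences equally well was not tested.

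miR-24-3p, which in cardiac fibroblasts of rodents is known to lower TGF-beta signalling through furin, was the most abundant member. It held 143682 and 289164 normalized reads in KO hypoxia, 146576 and 193612 in KO normoxia, 162344 and 301404 in WT hypoxia, and 191638 and 290469 in WT normoxia. In each group the library numbered 2 held more, and all 4 groups overlapped. Group means were 216423 ± 102871 in KO hypoxia, 170094 ± 33260 in KO normoxia, 231874 ± 98330 in WT hypoxia and 241054 ± 69884 in WT normoxia (SD, n = 2 each). The means differed by at most 1.42-fold, while the KO hypoxia libraries differed by 2.01-fold between themselves.

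miR-23b-3p held 151705 and 249779 in KO hypoxia, 149026 and 154603 in KO normoxia, 146544 and 279221 in WT hypoxia, and 130501 and 234332 in WT normoxia. Its partner miR-23a-3p held 136556 and 192007 in KO hypoxia, 131313 and 102653 in KO normoxia, 158425 and 218875 in WT hypoxia, and 134891 and 178789 in WT normoxia. KO normoxia was the lowest group for each by its mean. On the deposited scale its miR-23a-3p libraries lay below those of all other groups, and whether this holds as a share of the microRNA counts was not tested. The miR-23a-3p means were 164282 ± 39210 in KO hypoxia, 116983 ± 20266 in KO normoxia, 188650 ± 42745 in WT hypoxia and 156840 ± 31041 in WT normoxia (SD, n = 2 each). Their largest ratio was 1.61-fold, against at most 1.41-fold between the libraries of a group.

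miR-27a-3p held 70052 and 102247 in KO hypoxia, 64590 and 56691 in KO normoxia, 43742 and 125579 in WT hypoxia, and 69832 and 106506 in WT normoxia. Both the highest and the lowest of its 8 values were in WT hypoxia, 2.87-fold apart, whereas the group means differed by 1.45-fold at most. miR-27b-3p, which shares its seed, held 180 and 264 in KO hypoxia, 148 and 154 in KO normoxia, 108 and 312 in WT hypoxia, and 173 and 277 in WT normoxia. It was the low member of the seed pair in every library, and its libraries stood in much the same order as those of miR-27a-3p.

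The 5p arms were lower than the 3p arms except at miR-27b. miR-24-2-5p held 4145 and 6085 in KO hypoxia, 4683 and 5005 in KO normoxia, 5519 and 7255 in WT hypoxia, and 5147 and 8272 in WT normoxia. miR-24-1-5p held 874 and 1374 in KO hypoxia, 687 and 958 in KO normoxia, 772 and 1572 in WT hypoxia, and 788 and 1664 in WT normoxia. The a copy was thus the higher of the miR-24 5p arms in 8 of 8 libraries, with no overlap between the features over all libraries. miR-27a-5p ranged from 1847 to 3277 and miR-27b-5p from 1016 to 1561, again without overlap. miR-23b-5p ranged from 130 to 321 and miR-23a-5p from 12 to 56, so the b arm was the higher of these. miR-23a-5p was the member nearest to the limit of detection, with libraries of WT hypoxia 4.67-fold apart.

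In order of their level the 4 leading 3p arms each overlapped with the next over the 8 libraries. miR-24-2-5p and miR-27a-5p each stood clear of every other member. miR-27b-5p overlapped with miR-24-1-5p, and miR-23b-5p with miR-27b-3p. miR-23a-5p was below all others. By the mean over the libraries the b member was the higher on both arms of miR-23, and the a member on both arms of miR-27 and on the 5p arm of miR-24. This order held in every library except for miR-23a-3p and miR-23b-3p, where the a member was the higher in 2 of 8.

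**Figure D2:**
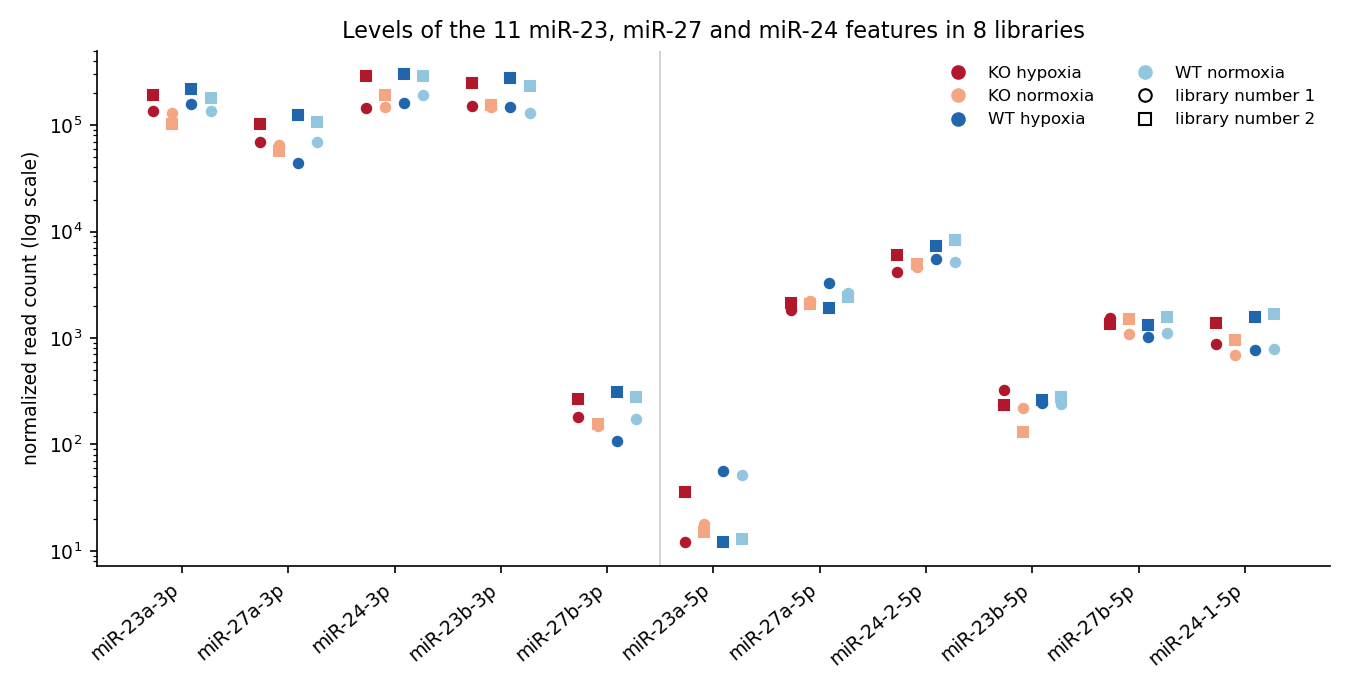
Points are the normalized read counts of the 11 members (log axis) in the 8 libraries, with colours for the 4 groups and KO left of WT. The 4 leading 3p arms lie between 43742 and 301404 and miR-23a-5p between 12 and 56, and the spread within a group is as wide as that between groups for most members.

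The a cluster was set against the b cluster by ratios within a library, which do not depend on how the library was scaled. The miR-23 partners were close to equal, the miR-27 3p arms were 368-fold to 436-fold apart, and the miR-24 copies differed several-fold. miR-23a-3p over miR-23b-3p was 0.900 and 0.769 in KO hypoxia, 0.881 and 0.664 in KO normoxia, 1.08 and 0.784 in WT hypoxia, and 1.03 and 0.763 in WT normoxia. Its mean was 0.859 ± 0.143 (SD, n = 8), and the a member was the higher in 2 of 8 libraries, both WT libraries numbered 1. The ratio was 0.881 to 1.08 in the libraries numbered 1 and 0.664 to 0.784 in those numbered 2, without overlap, and the totals differ in the same way between the numbers. The part of depth in this was not tested.

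Neither oxygen nor genotype separated the miR-23 ratio beyond its spread. On the log2 scale it averaged -0.19 ± 0.23 in hypoxia and -0.28 ± 0.27 in normoxia (SD, n = 4 each), a difference of 0.09 (exact two-sided permutation test, p = 0.543, adjusted p = 0.943 over 12 ratio tests). It averaged -0.33 ± 0.20 in KO and -0.15 ± 0.26 in WT (SD, n = 4 each), a difference of -0.18 (exact permutation p = 0.286, adjusted p = 0.943). Within libraries of the same number and the other factor held fixed, hypoxia was above normoxia in 4 of 4 comparisons, by 0.03 to 0.21, and KO was below WT in 4 of 4, by differences of -0.26 to -0.03. The smallest p that 4 against 4 libraries allow is 0.0286, and 4 such within-number differences cannot give an exact two-sided p below 0.125.

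The miR-24 hairpins could be told apart by their 5p arms alone. miR-24-2-5p over miR-24-1-5p was 4.74 and 4.43 in KO hypoxia, 6.82 and 5.22 in KO normoxia, 7.15 and 4.62 in WT hypoxia, and 6.53 and 4.97 in WT normoxia. All ratios were above 4, and the libraries numbered 1 held the higher ratio in each group. The log2 ratio was 2.36 ± 0.32 in hypoxia and 2.54 ± 0.23 in normoxia (SD, n = 4 each; exact permutation p = 0.314), and 2.39 ± 0.27 in KO and 2.52 ± 0.30 in WT (SD, n = 4 each; exact permutation p = 0.6). Adjusted p was 0.943 for each. Over the 8 libraries miR-24-3p was correlated with miR-24-1-5p (r = 0.935) and with miR-24-2-5p (r = 0.886) on the log2 scale. These describe features that share libraries and depth, and they do not divide miR-24-3p between the copies.

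miR-27a-5p over miR-27b-5p was 1.21 and 1.56 in KO hypoxia, 2.05 and 1.38 in KO normoxia, 3.23 and 1.44 in WT hypoxia, and 2.38 and 1.57 in WT normoxia. It had a mean log2 ratio of 0.60 ± 0.33 in KO and 1.03 ± 0.54 in WT (SD, n = 4 each), and this difference of -0.42 did not pass (exact permutation p = 0.2, adjusted p = 0.943). Without WT hypoxia number 1 it was -0.20. miR-23a-5p over miR-23b-5p ran from 0.0374 to 0.228. The summed 3p arms of miR-23 and miR-27, the a cluster over the b cluster, were 1.36 and 1.18 in KO hypoxia, 1.31 and 1.03 in KO normoxia, 1.38 and 1.23 in WT hypoxia, and 1.57 and 1.22 in WT normoxia. The a cluster sum was the higher in 8 of 8 libraries. This order rests on miR-27a-3p, at 43742 to 125579, since miR-27b-3p added only 108 to 312 to the b cluster sum. It therefore depends on how reads were divided between the miR-27 3p arms, which was not tested. Between the miR-23 3p arms alone the a member was the higher in 2 of 8. On the log2 scale the ratio of the sums averaged 0.28 ± 0.18 in KO and 0.42 ± 0.17 in WT (SD, n = 4 each; exact permutation p = 0.314, adjusted p = 0.943), lower in KO in 4 of 4 comparisons within a number.

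**Figure D3:**
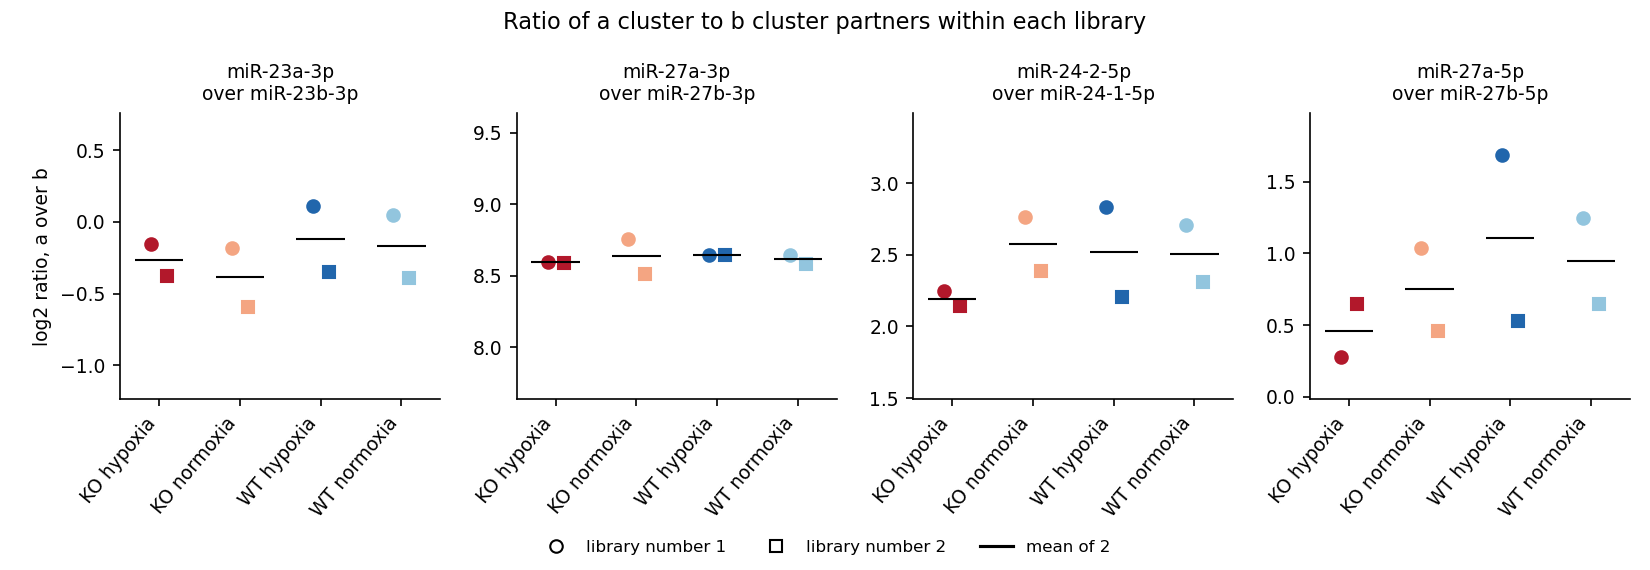
Each panel shows 1 partner pair as the log2 ratio of the a member over the b member, by group from KO hypoxia to WT normoxia, with 1 point a library. miR-23a-3p over miR-23b-3p runs from -0.59 to 0.11 and is above 0 in 2 of 8 libraries. miR-27a-3p over miR-27b-3p stays between 8.51 and 8.76 in all 8 libraries.

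The miR-27 3p arms kept a nearly fixed ratio. miR-27a-3p over miR-27b-3p was 389 and 387 in KO hypoxia, 436 and 368 in KO normoxia, 405 and 402.5 in WT hypoxia, and 404 and 384.5 in WT normoxia. miR-27b-3p was therefore 0.229% to 0.272% of the pair partner in every library, although miR-27a-3p itself ranged from 43742 to 125579. In WT hypoxia, where the levels differed most, it was 0.247% (95% exact interval 0.202% to 0.298%, counting error only) in number 1 and 0.248% (0.222% to 0.278%) in number 2. The ratio had a coefficient of variation of 5.07%, while counting error alone would give 7.46% if the values were reads. By contrast the miR-23 3p ratio varied by 16.6% against 0.353%, the miR-24 5p ratio by 19.6% against 3.47%, and the miR-27 5p ratio by 36.4% against 3.50%.

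miR-27b-3p followed the a cluster's arm more closely than its own hairpin's other arm. It had r = 0.991 with miR-27a-3p over the 8 libraries, and its ratio to miR-27b-5p varied by 28.7%. Among 32 pairs of microRNAs of equal length that differ at 1 or 2 bases as deposited, with a mean of at least 50, the miR-27 3p pair had the smallest spread of the log2 ratio (SD 0.07, against a median SD of 0.23 over the pairs). The other pair with a ratio of this size, miR-20a-5p and miR-20b-5p (407-fold), had an SD of 0.34. The miR-23 3p pair, of like level and with 1 base of difference, had an SD of 0.24. The mature miR-27 arms differ at 1 base, C20T in the deposited numbering. Whether sequencing or assignment moved reads between miR-27a-3p and miR-27b-3p, in either direction, was not tested. The listed miR-27b-3p value is therefore reported as uncertain, and so are its ratios to miR-27a-3p and to miR-27b-5p.

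**Figure D4:**
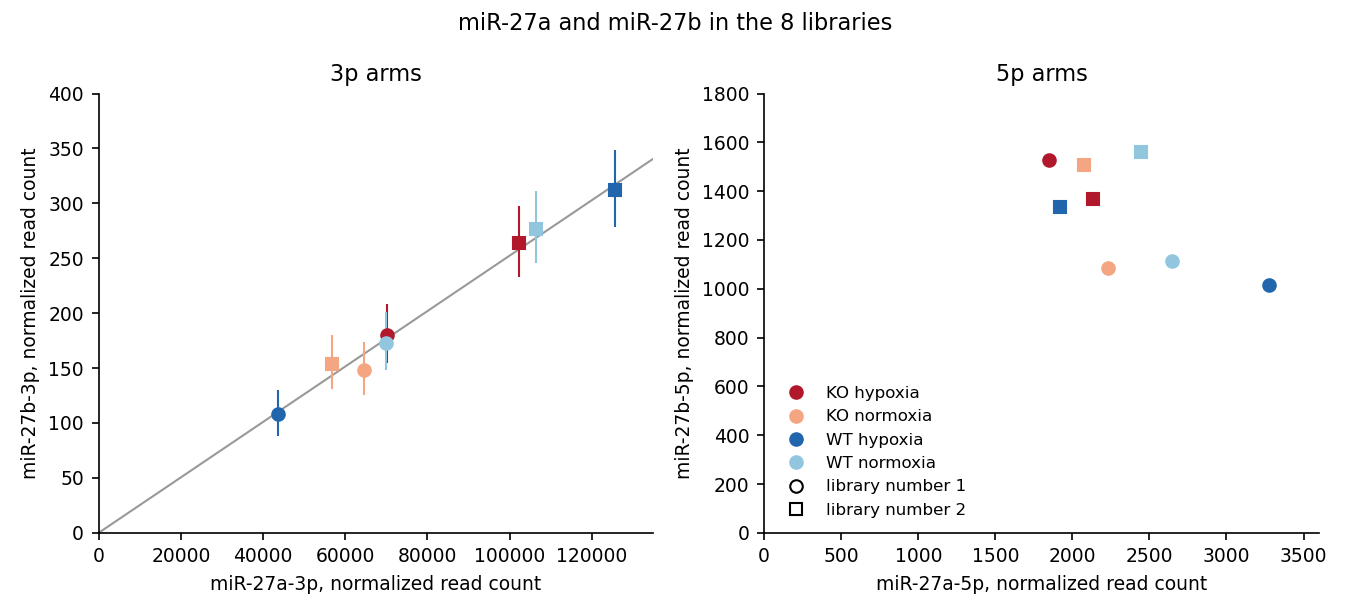
The left panel plots miR-27b-3p against miR-27a-3p and the right panel miR-27b-5p against miR-27a-5p, in normalized read counts with 1 point a library. The 3p points follow a line through the origin with a ratio of 368 to 436, and the 5p points have no such line, with ratios of 1.21 to 3.23.

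The arms of 1 hairpin were then compared. The 3p arm exceeded the 5p arm by 2594-fold to 18240-fold at miR-23a, by 473-fold to 1189-fold at miR-23b and by 13.3-fold to 65.4-fold at miR-27a. At miR-27b the 3p arm was the lower in 8 of 8 libraries, at 0.102 to 0.234 of the 5p arm. The kept arm thus differed between the miR-27 partners as listed, with the limit on miR-27b-3p given above. The miR-23b ratio was 473 to 671 in the libraries numbered 1 and 837 to 1189 in those numbered 2, without overlap. None of the 8 tests of these ratios by oxygen or genotype passed (exact two-sided permutation test, 4 libraries against 4, smallest adjusted p = 0.886). The differences in the log2 ratio included -0.28 for miR-27b in KO against WT (exact permutation p = 0.4, and -0.48 without WT hypoxia number 1) and 0.21 for miR-23a in hypoxia against normoxia (exact permutation p = 0.8).

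Hypoxia was compared with normoxia in each genotype, the question the culture conditions pose. Hypoxia and KO values were tested with limma on log2(normalized count + 1), with p-values adjusted by Benjamini-Hochberg over the 1540 features that reached 10 in at least 2 libraries, and all 11 members did. In WT cells 0 of 11 members passed an adjusted p of 0.05, against 0% of all features, and 0 of 11 had an unadjusted p under 0.05 (20 of 1540 features did). The member differences ran from -0.25 to 0.26 on the log2 scale, with 2 higher and 9 lower in hypoxia, and their median was -0.04 beside 0.02 over all features. That median was -0.39 without WT normoxia number 1 and 0.35 without WT hypoxia number 1. miR-23a-3p had a log2 difference of 0.26 (SE 0.31, 95% interval -0.44 to 0.96, limma adjusted p = 1). miR-23b-3p differed by 0.21 (SE 0.41), miR-24-3p by -0.09 (SE 0.42) and miR-27a-3p by -0.22 (SE 0.46). In all members the WT hypoxia and WT normoxia libraries overlapped, while 14.4% of the features tested lay wholly higher and 11.4% wholly lower.

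In KO cells 0 of 11 members passed, against 0% of all features, and 0 of 11 had an unadjusted p under 0.05 (83 of 1540 did). The values leaned upward, with 10 members higher and 1 lower in hypoxia and a median of 0.36, beside 0.02 over all features and 0.24 over microRNAs. Without KO hypoxia number 2 the median was 0.11, with 6 members higher and 5 lower, and without KO hypoxia number 1 it was 0.73. With quantile normalization it was 0.18, and scaled to the microRNA total it was 0.21. miR-23a-3p differed by 0.48 (SE 0.31, 95% interval -0.22 to 1.18, limma adjusted p = 0.893) and miR-27a-3p by 0.48 (SE 0.46, limma adjusted p = 0.902). miR-23b-3p differed by 0.36 (SE 0.41) and miR-24-3p by 0.27 (SE 0.42). The smallest p was that of miR-23b-5p, which averaged 277.5 ± 61.5 in KO hypoxia and 176.0 ± 65.1 in KO normoxia (SD, n = 2 each; log2 difference 0.69, SE 0.33, 95% interval -0.06 to 1.44, limma adjusted p = 0.804). This difference was 0.30 without KO normoxia number 2 and 1.07 without KO normoxia number 1. For miR-23a-3p, miR-27a-3p, miR-23b-5p and miR-27b-3p both KO hypoxia libraries lay above both KO normoxia libraries, as did 15.8% of all features tested. No member lay wholly lower, against 13.1% of features. The members share libraries, so these are not independent counts.

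The changes with hypoxia were not shown to differ between genotypes. The KO change minus the WT change had a median of 0.35 over the members (10 above 0, 1 below), beside 0.02 over all features and 0.25 over microRNAs, and 0 of 11 members passed, against 0% of features (37 of 1540 and 0 of 11 members had an unadjusted p under 0.05). The median rested on single libraries: it was -0.02 without WT hypoxia number 1, -0.03 without KO hypoxia number 2 and 0.07 without WT normoxia number 2, against 0.61 without WT hypoxia number 2 and 0.60 without WT normoxia number 1. miR-23b-5p had the smallest p of the members (log2 0.72, SE 0.47, limma adjusted p = 1.00, and 0.34 without KO normoxia number 2). Averaged over the genotypes 0 of 11 members passed for hypoxia, against 0% of features (55 of 1540 features and 0 members had an unadjusted p under 0.05). The leading member there was miR-23a-3p (log2 0.37, SE 0.22, limma adjusted p = 0.974).

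KO was compared with WT at each oxygen level, which asks what differs between cells with little and with much miR-210. In normoxia 0 of 11 members passed, against 0.0649% of all features, and 0 of 11 had an unadjusted p under 0.05 (207 of 1540 did). All 11 values were lower in KO, from -0.64 to -0.04, with a median of -0.49 beside -0.06 over all features and -0.28 over microRNAs. Scaling each library to its microRNA total moved the median of all features to 0.17 and that of the members to -0.25, and miR-23b-3p and miR-27b-5p were then higher in KO, as miR-23b-3p was with quantile normalization. Without WT normoxia number 2 the median was -0.20 and 3 members were higher in KO, and without WT normoxia number 1 it was -0.72 and 1 was higher. miR-24-3p differed by -0.49 (SE 0.42, limma adjusted p = 0.670), miR-23a-3p by -0.42 (SE 0.31, limma adjusted p = 0.609), miR-27a-3p by -0.51 (SE 0.46, limma adjusted p = 0.677) and miR-23b-3p by -0.20 (SE 0.41, limma adjusted p = 0.882). miR-23b-5p had the smallest p (176.0 ± 65.1 in KO normoxia and 259.5 ± 29 in WT normoxia, SD, n = 2 each; log2 difference -0.60, SE 0.33, 95% interval -1.35 to 0.14, limma adjusted p = 0.473). That difference was -0.22 without KO normoxia number 2 and -0.99 without KO normoxia number 1.

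For 6 of the 11 members both KO normoxia libraries lay below both WT normoxia libraries, as did 20.0% of all features tested. These were miR-23a-3p, miR-27a-3p, miR-24-2-5p, miR-27a-5p, miR-23b-5p and miR-27b-3p, 4 of them from the a cluster and 2 from the b cluster. No member lay wholly higher, against 21.9% of features. Overlap was judged on the deposited scale in every comparison, and was not tested after scaling to the microRNA total. The microRNA totals were 6494075 and 7922625 in KO normoxia, against 7730033 and 9248244 in WT normoxia. The KO normoxia libraries also enter the comparison of hypoxia with normoxia in KO cells, and the values of these comparisons are therefore not independent.

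In hypoxia 0 of 11 members passed between KO and WT, against 0.130% of all features, and 0 of 11 had an unadjusted p under 0.05 (139 of 1540 did). Values lay on both sides of 0, with 4 higher and 7 lower in KO, from -0.34 to 0.31, and a median of -0.06 beside -0.04 over all features. The median was -0.52 without WT hypoxia number 1 and 0.33 without WT hypoxia number 2. miR-24-3p differed by -0.12, miR-23b-3p by -0.06, miR-23a-3p by -0.20 and miR-27a-3p by 0.19. miR-27a-5p had the smallest p, with 1847 and 2136 in KO hypoxia against 3277 and 1920 in WT hypoxia (log2 difference -0.34, SE 0.30, limma adjusted p = 0.967). miR-27b-5p held 1528 and 1367 in KO hypoxia against 1016 and 1333 in WT hypoxia, the only member whose libraries did not overlap, against 19.2% of features that lay wholly higher and 16.6% wholly lower. Averaged over oxygen 0 of 11 members passed, against 0.130% of features (274 of 1540 features and 0 members had an unadjusted p under 0.05), and miR-24-2-5p had the smallest p of the members (log2 -0.38, SE 0.23, limma adjusted p = 0.506).

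**Figure D5:**
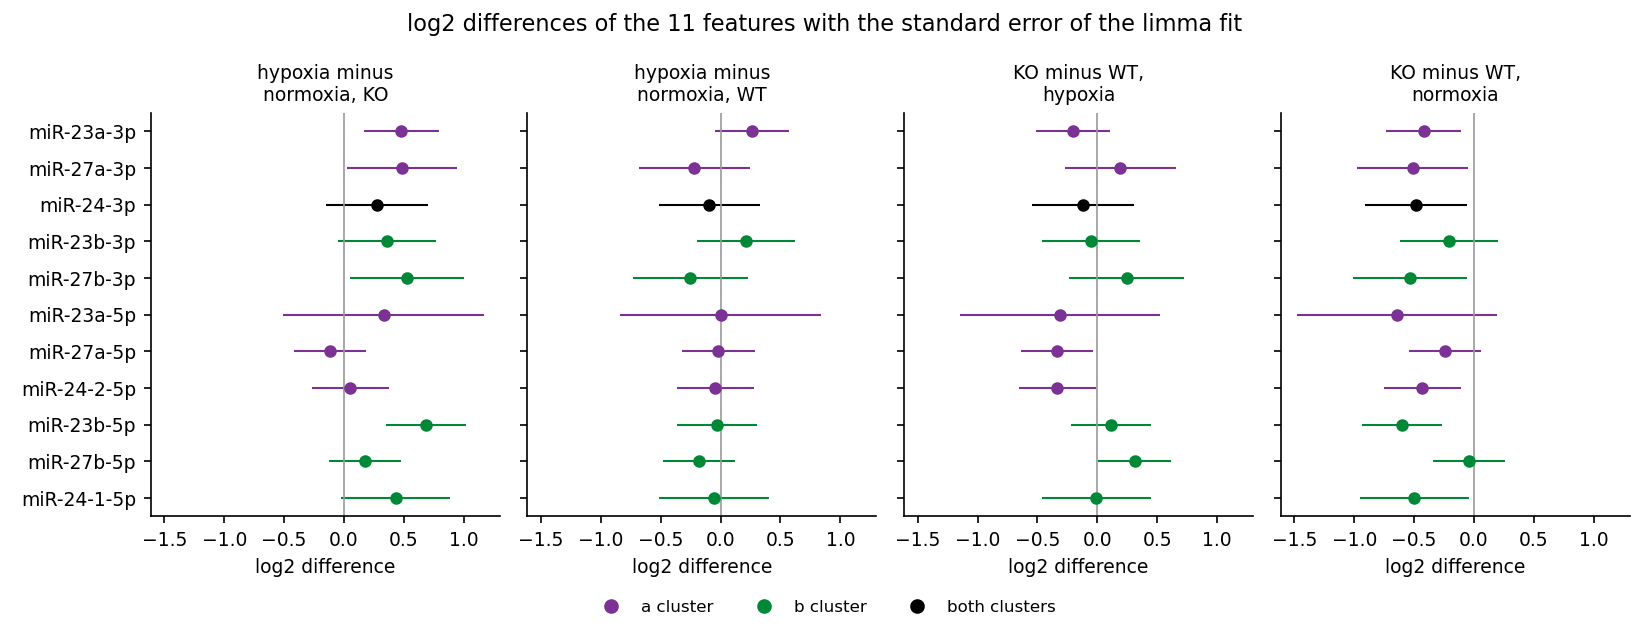
Points are the log2 differences of the 11 members and bars their standard errors from the limma fit, in a panel for each of the 4 comparisons. The 95% limma intervals are wider than these bars and are not drawn, and each of them includes 0. KO against WT in normoxia has all 11 points below 0, from -0.64 to -0.04. Of these, miR-23b-3p and miR-27b-5p lie above 0 when libraries are scaled to the microRNA total.

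These intervals bound what the libraries could show. In the comparisons of 2 groups the 95% intervals reached 0.68 to 1.88 log2 units on either side of a member's difference, so changes of the size seen were not detectable here, and a p that misses the threshold does not show equal levels. The rise of miR-210-3p with hypoxia in WT cells, from 4786 and 8676 to 36738 and 39011, did not pass the adjusted p of 0.05 either.

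Other microRNAs that the field ties to hypoxia, vessels or fibroblasts are given as counts from the same limma fit. Of 21 features of the remaining hypoxia survey microRNAs 20 were tested, and those that passed were the miR-210 arms alone, lower in KO (1 in normoxia, 2 in hypoxia). The median of the list was 0.26 for hypoxia in KO cells, 0.02 for hypoxia in WT cells, -0.34 for KO against WT in normoxia and -0.04 in hypoxia. Of 12 vessel microRNAs 0 passed in the 4 comparisons and 1 had an unadjusted p under 0.05 (KO against WT in hypoxia), with a median of 0.16 for hypoxia in KO cells and -0.11 for KO against WT in normoxia. Of 20 tested fibroblast activation microRNAs 0 passed and 0 had an unadjusted p under 0.05. For KO against WT in normoxia 0 of these were higher and 20 lower, with a median of -0.20, beside -0.28 over all microRNAs. In that comparison 5 hypoxia survey features were higher and 15 lower, and 4 vessel microRNAs were higher and 8 lower. miR-128-3p, whose seed resembles that of miR-27, ranged from 338 to 759.

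The microRNAs most like each cluster over the 8 libraries were named by the highest Pearson r of log2 values among 379 other microRNAs with a mean of at least 50. For the sum of miR-23a-3p and miR-27a-3p they were miR-26b-5p (r = 0.951), miR-365-3p (0.948), miR-669d-5p (0.938), miR-140-5p (0.919) and miR-361-5p (0.915). For the sum of miR-23b-3p and miR-27b-3p they were miR-214-3p (r = 0.978), miR-331-3p (0.936), miR-148a-3p (0.932), miR-199a-5p (0.930) and miR-664-3p (0.922). No microRNA is on both lists, but each stops at 5 of 379, so this does not show that the clusters have distinct partners. The b cluster sum is almost all miR-23b-3p, since miR-27b-3p added only 108 to 312. Among the members miR-23b-3p was most alike to miR-24-1-5p of its own cluster (r = 0.936) and miR-23a-3p had r = 0.828 with miR-23b-3p. miR-27a-5p went against its 3p arm (r = -0.529) and against miR-27b-5p (r = -0.678). These values describe 8 libraries that share scaling and depth. For miR-24-3p, miR-23b-3p and miR-24-1-5p all libraries numbered 2 lay above all numbered 1, and the part of this in the correlations was not tested.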

How the data were processed

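Small RNA was measured in 8 libraries of mouse fibroblasts, from total RNA isolated with miRNeasy and prepared with NEBNext reagents for SOLiD sequencing, per the labels' protocols. The deposited values are a score: the authors' normalized read counts, rounded to whole numbers. The sources used here give no alignment, build, normalization method or treatment of multiply matching reads, and the table's own coordinates were not used. No count test fits such values, so log2(value + 1) was tested with limma 3.58.1 (R 4.3.3, intensity trend, 4 group means, 4 residual and 5.64 prior degrees of freedom) over 1540 features with at least 10 in at least 2 libraries. The fit was first tested on simulated data, with changes larger than those of the members planted in KO hypoxia alone. The simulated libraries had no spread shared by number. What the fit detects at the size of the members' differences was therefore not tested. Ratios were tested with exact permutation (Python 3.11.15, scipy 1.17.1). Sequences and positions are RefSeq's, and overlapping genes are GENCODE M21's.

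The members and lists were chosen with earlier results of these data known. All members were named, with the 5 microRNAs most like each cluster by r. Lists are given as counts. Alternatives were 2 other pseudocounts (8 and 0.5), a filter on the mean (50) or none, scaling by TMM, by quantiles or to the microRNA total, no trend, a replicate block, the groups of a contrast alone, and leaving out each library.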

Additional observations from a re-analysis of the deposited data

Results flagged for a closer look

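Among 40 sets of 4 libraries examined with Dixon's test at its 95% critical value, 2 had a library apart from the other 3, and chance alone flags about 5% of sets. In the WT libraries the log2 ratio of miR-27a-3p over miR-27b-3p was 8.58 in WT normoxia number 2, against 8.65 in each of the other 3, which lie so close together that a small gap stands out. In the hypoxia libraries the log2 ratio of miR-24-2-5p over miR-24-1-5p was 2.84 in WT hypoxia number 1, against 2.24 and 2.15 in KO hypoxia and 2.21 in WT hypoxia number 2.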

How the results depend on the processing

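No member passed the threshold in any alternative fit that was run. Fitting the groups of a contrast alone was run for the 4 comparisons of 2 groups and not for the interaction or the averaged comparisons. The smallest adjusted p of a member over all of them was 0.186 (miR-24-2-5p, KO against WT averaged over oxygen, with the replicate block). Of 736 alternative values 62 had another sign than the value reported or were 0, 26 of them member differences and 36 ratios. The cause was not tested. Many of the 736 could not change sign, such as those without a library outside the comparison or with another filter or trend. Their share is therefore no measure of how stable the signs are. With quantile normalization miR-23a-3p and miR-23b-3p differed by 0 and -0.047 for hypoxia in WT, miR-23b-3p by 0.0081 for KO against WT in normoxia, and miR-23a-3p and miR-23b-3p by 0.011 and 0.21 in hypoxia. Scaled to the microRNA total, miR-23b-3p differed by 0.033 for KO against WT in normoxia, and miR-23b-3p and miR-24-3p by 0.099 and 0.037 in hypoxia.

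Leaving out each library in turn moved the log2 differences across 0 as follows. For hypoxia in WT miR-23b-3p ran from -0.25 to 0.68, miR-24-3p from -0.54 to 0.35 and miR-27a-3p from -0.98 to 0.54. For hypoxia in KO miR-23b-3p ran from -0.00080 to 0.72 and miR-24-3p from -0.23 to 0.78, both lowest without KO hypoxia number 2. For KO against WT in normoxia miR-23b-3p ran from -0.63 to 0.22, highest without WT normoxia number 2. For KO against WT in hypoxia miR-23a-3p ran from -0.45 to 0.044, miR-23b-3p from -0.52 to 0.41, miR-24-3p from -0.62 to 0.39, miR-27a-3p from -0.57 to 0.95 and miR-27a-5p from -0.72 to 0.049. A group left with 1 library was assumed to vary like the others. Without crossing 0, the remaining differences still moved with single libraries. For hypoxia in KO miR-23a-3p ran from 0.23 to 0.73, miR-27a-3p from 0.21 to 0.76 and miR-23b-5p from 0.30 to 1.07, and for hypoxia in WT miR-23a-3p from 0.029 to 0.50. For KO against WT in normoxia miR-24-3p ran from -0.79 to -0.19, miR-23a-3p from -0.62 to -0.22, miR-27a-3p from -0.82 to -0.21 and miR-23b-5p from -0.99 to -0.22. Averaged over oxygen miR-24-2-5p ran from -0.55 to -0.21, and averaged over genotypes miR-23a-3p for hypoxia ran from 0.25 to 0.49. The a over b log2 ratios by oxygen ran from -0.017 to 0.20 for miR-23-3p, -0.042 to 0.040 for miR-27-3p, -0.60 to 0.24 for miR-23-5p, -0.37 to 0.10 for miR-27-5p and -0.080 to 0.12 for the cluster sums. By genotype they ran from -0.064 to 0.018 for miR-27-3p and -0.60 to 0.15 for miR-23-5p, and below 0 throughout from -0.59 to -0.20 for miR-27-5p, -0.26 to -0.093 for miR-23-3p, -0.26 to -0.023 for miR-24-5p and -0.20 to -0.066 for the cluster sums. The 3p over 5p log2 ratios by oxygen ran from -0.22 to 0.66 for miR-23a, -0.21 to 0.18 for miR-23b, -0.095 to 0.67 for miR-27a and -0.060 to 0.32 for miR-27b. By genotype they ran from -0.26 to 0.64 for miR-23a, -0.077 to 0.36 for miR-23b, -0.29 to 0.48 for miR-27a and -0.48 to -0.10 for miR-27b.

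The groups share replicate numbers that no label ties to a culture or day. Deviations of same-numbered libraries had r from 0.15 to 0.55 between groups. With the replicate block 0 members passed, and the count over all features was 91 against 2 for KO against WT averaged over oxygen, 8 against 0 for hypoxia in WT and 3 against 0 for hypoxia averaged over genotypes. For KO against WT averaged over oxygen it was 85 scaled to the microRNA total and 13 with TMM factors. The depth of reads before normalization is unknown, so intervals on shares treat the values as reads.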
